A study of Mus musculus with 12 samples.

Results

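The genes described here are 10 cadherins, the type II cadherins Cdh6, Cdh7, Cdh8, Cdh9, Cdh10, Cdh11, Cdh12, Cdh18 and Cdh20 and the atypical cadherin Cdh13. They were taken by their gene symbols from the 55336 genes of the count matrices, and each symbol matched 1 gene. Single-nucleus RNA sequencing of the cortex was performed in mice at P21, in 6 wild-type (WT) and 6 heterozygous (Het) animals, with 3 males and 3 females of each genotype. All animals came from the Myt1l S710fsX line on a C57BL/6 background, and Het animals carried 1 allele with a frameshift in Myt1l, a zinc-finger transcription factor of neurons. By the study's methods, the Calling Cards constructs hyPB and H2b-tdT-SRT were packaged into AAV9 and injected into the brains of newborn pups, WT and Het alike, and the P21 tissue came from 4 litters. Nuclei were purified on an iodixanol gradient from flash-frozen tissue, and all animals were processed on the same plates.

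Cadherins are calcium-dependent adhesion proteins of the cell surface. Type II cadherins cross the membrane, bind catenins at their cytoplasmic tail and are known for restricted expression in particular layers, nuclei and circuits of the brain, where they bind the same or a related cadherin on the neighbouring cell. By their binding preferences they are grouped into Cdh6, Cdh9 and Cdh10, into Cdh8 and Cdh11, and into Cdh7, Cdh12, Cdh18 and Cdh20. Cdh13, or T-cadherin, is held in the membrane by a GPI anchor, has no cytoplasmic tail and is also a receptor for adiponectin.

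All 10 genes are long. In mm10 with the GENCODE vM21 annotation, Cdh6 (chr15:13028701-13173675, minus strand), Cdh9 (chr15:16728756-16857094, plus), Cdh10 (chr15:18818947-19014236, plus), Cdh12 (chr15:20449265-21589533, plus) and Cdh18 (chr15:22549022-23474418, plus) lie on 1 chromosome. Cdh8 (chr8:99024471-99416471, minus), Cdh11 (chr8:102632095-102785642, minus) and Cdh13 (chr8:118283733-119324921, plus) lie on chromosome 8, and Cdh7 (chr1:109982431-110140157, plus) and Cdh20 (chr1:104768529-104995481, plus) on chromosome 1. The gene models span from 128.3 kb for Cdh9 to 1140.3 kb for Cdh12. Because nuclear RNA includes introns, levels were compared for 1 gene between classes of nuclei and never between genes.

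The sequences before the start of 3 members are shown, since Cdh9 and Cdh20 gave the differences between genotypes that passed the test and Cdh6 shares a run of bases with Cdh9. They are printed 5′ to 3′ on the strand of the gene, from the RefSeq table for GRCm38.p6. Capitals mark the longest run shared by the first start regions of any 2 of the 8 members with a RefSeq entry. Cdh6 is chr15:13173676-13173925 on the minus strand, Cdh9 is chr15:16728665-16728755 on the plus strand, shortened to the bases before its GENCODE gene model, and Cdh20 is chr1:104768270-104768519 on the plus strand.
Cdh6: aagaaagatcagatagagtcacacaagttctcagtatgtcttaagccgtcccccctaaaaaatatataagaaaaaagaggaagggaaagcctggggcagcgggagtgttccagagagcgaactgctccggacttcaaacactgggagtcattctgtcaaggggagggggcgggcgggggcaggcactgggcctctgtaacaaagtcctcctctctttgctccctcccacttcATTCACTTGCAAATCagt
Cdh9: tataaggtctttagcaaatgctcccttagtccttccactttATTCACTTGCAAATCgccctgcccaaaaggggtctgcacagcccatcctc
Cdh20: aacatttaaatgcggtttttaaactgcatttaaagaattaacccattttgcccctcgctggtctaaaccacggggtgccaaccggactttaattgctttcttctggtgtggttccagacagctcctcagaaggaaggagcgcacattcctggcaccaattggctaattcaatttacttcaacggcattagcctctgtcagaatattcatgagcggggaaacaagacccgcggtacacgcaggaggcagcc
The shared run was 15 bases long and began 18 bases before the RefSeq start of Cdh6 and 209 bases before that of Cdh9. Searched on both strands, it was found in 2 of 32851 start regions of 250 bases, those of Cdh6 and Cdh9. It was picked as the longest run shared by 2 members, so that its presence in these 2 follows from the choice. Runs of 13 bases were shared by Cdh8 and Cdh6 (found in 111 start regions) and by Cdh9 and Cdh18 (found in 31). The letters AAGTT, the core of the motif known for MYT1L, were searched on both strands in the same 250 bases and were found in 35.3% of all start regions. They were present in 4 of the 10 start regions of the 8 members with a RefSeq entry (those of Cdh6, Cdh8 and Cdh12 and 1 of the 3 of Cdh7), near the share of all start regions, and were not among the 250 bases before the RefSeq starts of Cdh9 and Cdh20.

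The matrices held 78743 barcodes and from 23429386 to 59958572 UMIs (unique molecular identifiers, 1 per captured transcript) per animal. The limits on nuclei were met by 44.3% of the barcodes. All barcodes had medians from 4173 to 6118 UMIs per animal, and the nuclei kept had a median of 3162 UMIs. After the limits on nuclei and the removal of likely doublets, 33118 nuclei were kept, 14346 from WT and 18772 from Het animals, and no barcode was shared between animals. They formed 55 clusters, of which 28 received the name of a class from marker genes, so that 21346 nuclei fell into 17 classes. Class names carry "-like" because they rest on marker UMIs, and they do not include the 27 clusters left unnamed. Classes were the excitatory neurons of the layers (IT, intratelencephalic; CT, corticothalamic; NP, near-projecting; L6b, the deepest layer), interneurons named by their marker gene, glia and fibroblasts. Dentate gyrus (DG)-like and striatal projection-like nuclei were also present, although the tissue was labelled cortex. UMIs were summed per animal and class and scaled to counts per 1000000 UMIs of that sum (CPM). Myt1l itself was detected in both genotypes, and the counts do not separate its alleles. Its level in all excitatory nuclei was lowest at 890, median 964 and highest at 1070 CPM in WT animals and 1026, 1081 and 1180 CPM in Het animals, and it passed the test in no class, with a smallest adjusted p of 0.0796 (edgeR, L6 CT-like).

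Each member had its own order of classes in WT animals, and a class rarely stood clear of the next. Of the 16 steps between neighbouring classes in each gene's order, the ranges over WT animals overlapped at every step for Cdh6, Cdh7 and Cdh13, and were apart at 1 step for Cdh8, Cdh9, Cdh10, Cdh11, Cdh18 and Cdh20 and at 3 steps for Cdh12. Classes are compared here as a description, with no test, and the means below are over 6 WT animals unless another n is given.

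**Figure D1:**
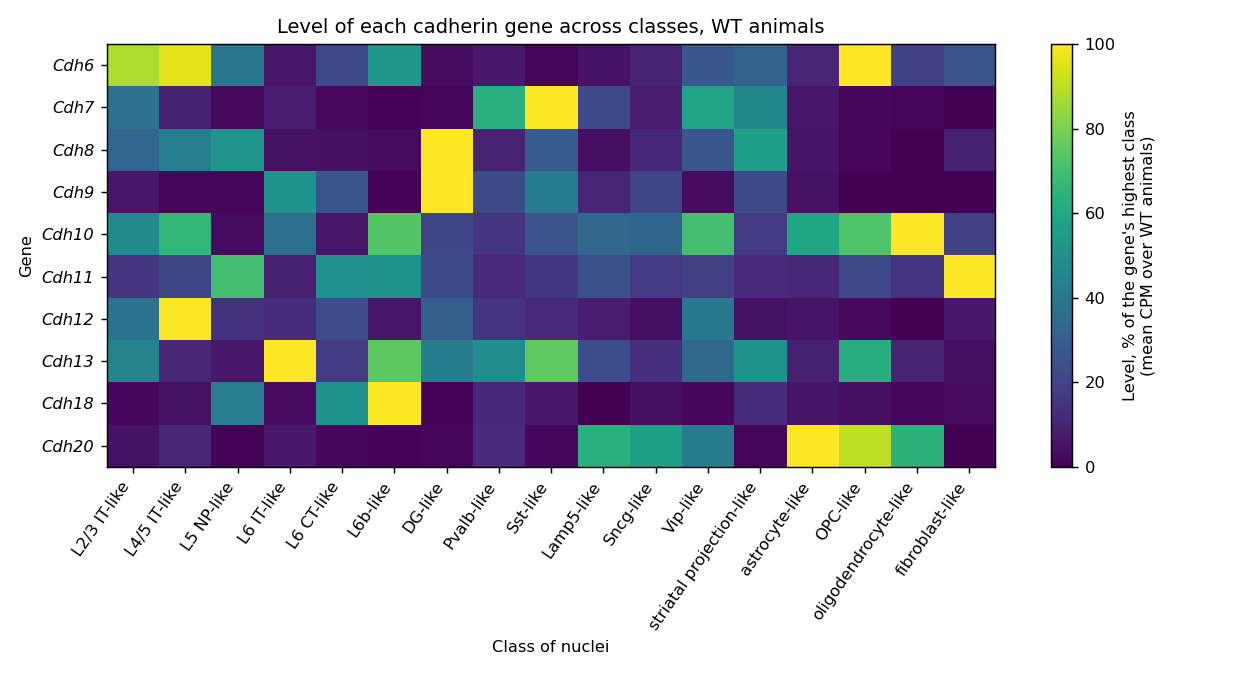
Level of each cadherin gene (rows) in each class of nuclei (columns), as the percentage of that gene's highest class, from the mean CPM over WT animals. Cdh12 in L4/5 IT-like, Cdh18 in L6b-like and Cdh8 and Cdh9 in DG-like nuclei stood apart from the next class.

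In the group of Cdh6, Cdh9 and Cdh10, the 3 genes had different classes on top. Cdh6, known from the developing kidney and from retinal circuits, had its highest means in OPC-like (oligodendrocyte precursor) nuclei at 240 ± 114 CPM (SD, n = 5), in L4/5 IT-like nuclei at 230 ± 30.6 and in L2/3 IT-like nuclei at 210 ± 37.0 CPM, with overlapping ranges. It was at 53.2 ± 11.7 CPM in L6 CT-like nuclei. Its lowest mean was 4.11 ± 2.67 CPM in Sst-like interneurons. Cdh9, known for its role at the mossy fibre synapse of the hippocampus, was highest in DG-like nuclei, at 701 ± 125 CPM. The lowest DG-like value, 507 CPM, lay above the highest of the next class, L6 IT-like nuclei, where the mean was 363 ± 43.7 CPM (n = 5). Cdh9 then followed in Sst-like nuclei at 292 ± 56.0 CPM, and was at 0 in fibroblast-like nuclei of all 3 WT animals with enough of them. Cdh10 was high in both glia and neurons, with 983 ± 194 CPM in oligodendrocyte-like nuclei, 720 ± 196 in L6b-like and 712 ± 147 in OPC-like nuclei (n = 5). The step in its order came at the bottom, where L6 CT-like nuclei had 59.3 ± 26.0 CPM and L5 NP-like nuclei 27.4 ± 15.4 CPM, below Pvalb-like nuclei at 152 ± 37.0 CPM.

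In the group of Cdh8 and Cdh11, Cdh8, studied in striatal and sensory circuits, was highest in DG-like nuclei at 1118 ± 72.6 CPM, apart from striatal projection-like nuclei at 633 ± 108 CPM. L5 NP-like nuclei, at 582 ± 52.0 CPM, and L4/5 IT-like nuclei, at 477 ± 69.5 CPM, came next with overlapping ranges. Cdh11, first described in bone-forming cells and also expressed in mesenchyme, was highest in fibroblast-like nuclei at 1165 ± 188 CPM (n = 3). Among neurons it was highest in L5 NP-like nuclei at 818 ± 124 CPM, in L6b-like nuclei at 601 ± 90.7 and in L6 CT-like nuclei at 584 ± 52.9 CPM. These 3 classes overlapped with each other in order, and L6 CT-like nuclei stood apart from the next class, Lamp5-like interneurons at 288 ± 35.0 CPM. L6 IT-like nuclei, also of a deep layer, had the lowest mean of the 17 classes, 103 ± 60.7 CPM (n = 5).

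In the group of Cdh7, Cdh12, Cdh18 and Cdh20, the highest classes were interneurons for Cdh7, L4/5 IT-like nuclei for Cdh12, deep-layer nuclei for Cdh18 and glia for Cdh20. Cdh7 was highest in Sst-like interneurons at 213 ± 54.1 CPM, followed by Pvalb-like nuclei at 135 ± 23.6 and Vip-like nuclei at 125 ± 30.5 CPM, with overlapping ranges. Cdh12 reached 5803 ± 413 CPM in L4/5 IT-like nuclei, and its lowest value there, 5313 CPM, was above the highest of the next class, Vip-like nuclei, 2957 CPM. L2/3 IT-like nuclei had 2206 ± 162 CPM of Cdh12 and oligodendrocyte-like nuclei 22.5 ± 13.9 CPM, the lowest mean, whose range was apart from that of the next class in the order, OPC-like nuclei, and overlapped those of astrocyte-like, fibroblast-like and Sncg-like nuclei. Cdh18 reached 4780 ± 1196 CPM in L6b-like nuclei, 2440 ± 248 in L6 CT-like and 2045 ± 685 CPM in L5 NP-like nuclei, against 106 ± 16.5 CPM in L2/3 IT-like nuclei. Cdh20 was highest in glia, at 744 ± 331 CPM in astrocyte-like (n = 4), 672 ± 102 in OPC-like (n = 5) and 481 ± 121 CPM in oligodendrocyte-like nuclei. Among interneurons it was at 471 ± 95.3 CPM in Lamp5-like, 427 ± 181 in Sncg-like and 312 ± 56.8 CPM in Vip-like nuclei. Below these 6 classes there was a step to Pvalb-like nuclei at 89.2 ± 28.0 CPM, and L4/5 IT-like nuclei held 78.9 ± 15.3 CPM of Cdh20.

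Cdh13, the GPI-anchored member, had its highest mean in L6 IT-like nuclei at 1304 ± 248 CPM (n = 5), followed by Sst-like nuclei at 979 ± 139 and L6b-like nuclei at 975 ± 377 CPM. It was at 224 ± 29.3 CPM in L6 CT-like nuclei and lowest in fibroblast-like nuclei at 48.2 ± 40.9 CPM (n = 3). No neighbouring classes stood apart for Cdh13.

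Patterns over the 17 classes, on log2(CPM + 1) of the sums over WT animals, were most alike among members for Cdh8 and Cdh12 (Pearson r = 0.70) and for Cdh10 and Cdh20 (r = 0.60), and most opposed for Cdh6 and Cdh9 (r = -0.63). The classes come from the same animals and differ in depth. Over all genes with at least 20 CPM in at least 1 class, the 3 closest patterns were those of Cobl (r = 0.74), Cdk2ap1 and Ldlrad4 for Cdh6, and Gm43884 (r = 0.84), Pam and Gm43880 for Cdh7. They were A330008L17Rik (r = 0.85), Lrfn5 and Syt14 for Cdh8, and Sart3 (r = 0.83), Apoo and Gria1 for Cdh9. Cdh10 was closest to Itprid2 (r = 0.73), Slc2a1 and Rab31, and Cdh11 to Gm45257 (r = 0.89), Col12a1 and Myzap. Cdh12 was closest to Hecw1 (r = 0.86), Mef2c and A230004M16Rik, Cdh13 to Abca8b (r = 0.81), Pnma2 and Stk32c, Cdh18 to Clic5 (r = 0.78), Nxph3 and Grik3, and Cdh20 to Gm38031 (r = 0.94), Ostm1 and Tbc1d31.

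The comparison of Het with WT animals asked whether the loss of 1 Myt1l allele went with a change of these genes within a class. Het animals had lower Cdh20 in L4/5 IT-like nuclei and lower Cdh9 in Pvalb-like interneurons, and these were the 2 member and class pairs that passed the test. Within each class, the sums per animal were compared by the quasi-likelihood test of edgeR, with Benjamini-Hochberg adjustment over all genes tested in the class, and a call needed an adjusted p under 0.05 and a log2 fold change beyond 0.2. Of 170 pairs of a member and a class, 119 had enough UMIs to be tested and 2 were called, both lower in Het. Over all genes and classes, 0.137% of pairs were called. The difference was negative in 79 of the 119 pairs, and 28 had an unadjusted p under 0.05, against 6.71% of the pairs of all genes. Signs are those of the edgeR fold change after its normalization, and can differ from those of mean CPM where a difference is small. By group, Cdh6, Cdh9 and Cdh10 were lower in Het in 29 of 33 pairs with a median log2 fold change of -0.27, Cdh8 and Cdh11 in 15 of 25, Cdh7, Cdh12, Cdh18 and Cdh20 in 29 of 46, and Cdh13 in 6 of 15. Of the 28 pairs with an unadjusted p under 0.05, 23 were lower in Het and belonged to type II members, and 5 were higher and belonged to Cdh13. Over the pairs of all genes, 50.6% were lower in Het. The study had already listed Cdh6 and Cdh9 among genes higher in WT at P21 in these same animals. The members were therefore not chosen blind to direction, and these counts are no independent support. All classes come from the same 12 animals, so that pairs of 1 gene are not independent. The p-values set a difference against the spread between these animals, and litter was in none of the models.

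**Figure D2:**
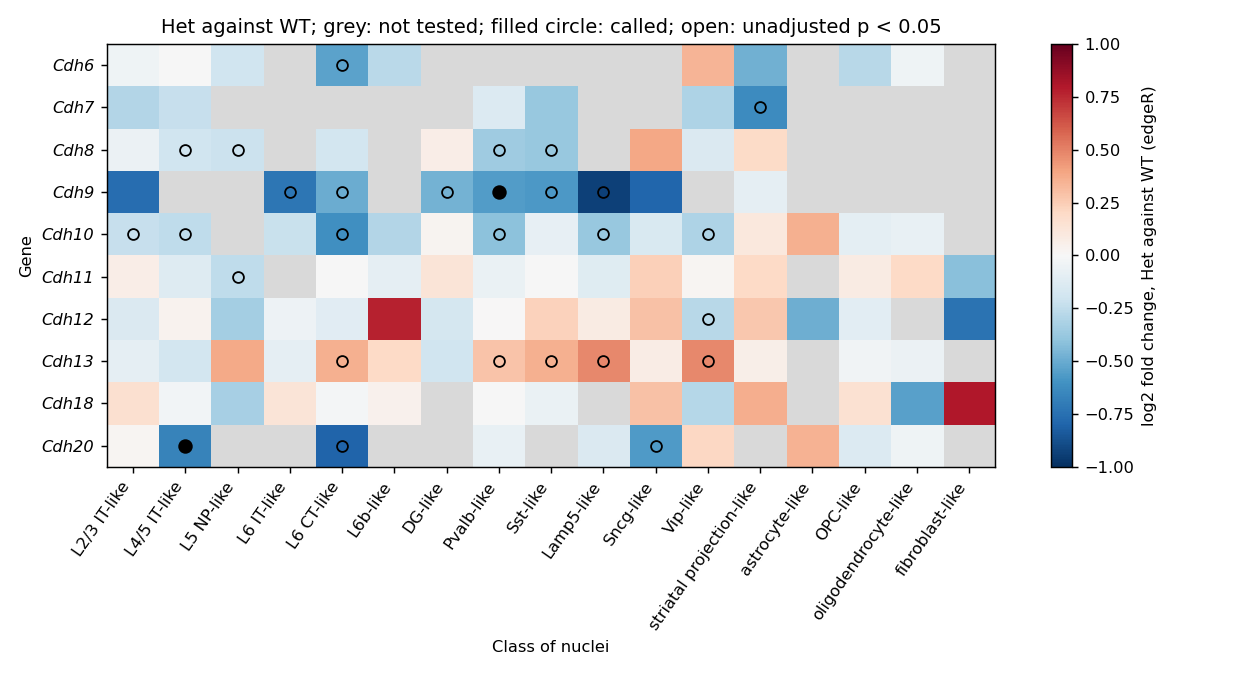
log2 fold change of Het against WT for each cadherin gene (rows) in each class of nuclei (columns), from edgeR. Blue squares are lower and red squares higher in Het, grey squares were not tested, filled circles mark the 2 called pairs and open circles an unadjusted p under 0.05, and the row of Cdh9 is lower throughout its 9 tested classes.

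Cdh9 had a lower mean in Het animals in every class in which it was tested, and in Pvalb-like interneurons, the fast-spiking basket and chandelier cells, the fall passed the test. In Pvalb-like nuclei the lowest, median and highest Cdh9 levels were 125, 156 and 196 CPM in WT animals and 83.0, 113 and 132 CPM in Het animals. In 5 of the 6 Het animals the level lay below the lowest WT animal, and the ranges overlapped through Het female 2. In the same nuclei the 9 microglia markers summed to 42.3, 45.7 and 66.8 CPM in WT and 26.3, 36.2 and 44.8 CPM in Het animals, and the 7 excitatory markers to 22.4, 26.8 and 52.0 CPM in WT and 10.4, 20.8 and 24.7 CPM in Het animals. Both sums overlapped between genotypes, as did those of astrocyte, oligodendrocyte and OPC markers, and their part in the result was not tested. The log2 fold change was -0.56 (SE 0.12, adjusted p = 0.0476, edgeR), where 0.0723% of all genes in these nuclei were called as lower. Pvalb-like nuclei came from 2 clusters, and within them Cdh9 differed by -0.56 on the log2 scale in cluster 3 (means 191 and 131 CPM, p = 0.013) and by -0.37 in cluster 4 (means 110 and 81.2 CPM, p = 0.197, exact permutation tests, two-sided). The call was lost under DESeq2 (log2 fold change -0.56, unadjusted p = 0.000147, adjusted p = 0.783). The unadjusted p of edgeR was smaller, at 3.2e-05, and the adjustment covered 26571 genes under DESeq2 against 5529 in edgeR. By edgeR the call was lost without the upper limits on nuclei (log2 fold change -0.32, adjusted p = 0.852), with classes set per nucleus (adjusted p = 0.929) and with sex as a covariate (adjusted p = 0.0609). It was also lost when any of 10 of the 12 animals was left out (largest adjusted p = 0.241, without WT male 3). It held without WT female 1 (adjusted p = 0.0089) and without Het female 2 (adjusted p = 0.0228).

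Sst-like interneurons showed the same direction for Cdh9, with 230, 285 and 389 CPM in WT animals and 144, 200 and 240 CPM in Het animals. Here too 5 of 6 Het animals were below all WT animals, and the log2 fold change of -0.58 (SE 0.13) had an adjusted p of 0.0598. In Lamp5-like nuclei Cdh9 was at 48.2, 65.9 and 103 CPM in WT and 27.2, 42.5 and 49.9 CPM in Het animals (-0.94, SE 0.24, adjusted p = 0.107, edgeR). In DG-like nuclei, where Cdh9 was highest, it was at 507, 698 and 891 CPM in WT and 351, 536 and 635 CPM in Het animals (-0.47, SE 0.13, adjusted p = 0.246, edgeR). In Sst-like nuclei Cdh9 was called without a filter on low counts (adjusted p = 0.00361), without WT male 2 (adjusted p = 0.00963), without Het female 2 (adjusted p = 0.0224) and without WT female 2 (adjusted p = 0.0393, edgeR). It was not called there in 9 of 10 alternatives and in 9 of 12 runs without 1 animal. The largest adjusted p was 0.944 by edgeR, that of DESeq2 was 0.321, and the smallest fall was -0.42. These 3 classes did not pass the test with all animals and the filter, and in each of them some Het animals lay within the WT range.

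L6 IT-like nuclei were the only class in which the genotypes did not overlap for any member. This class was 1 cluster of 255 nuclei. Its marker score was 2.21, against 1.63 for Car3 claustrum as the next list, and it was not named under the stricter margin. Cdh9 there was at 327, 338 and 420 CPM in the 5 WT animals with at least 10 such nuclei and at 178, 208 and 277 CPM in the 6 Het animals. These values rest on 134 UMIs of Cdh9 in WT and 118 in Het animals. The log2 fold change was -0.72 (SE 0.19, adjusted p = 0.29, edgeR), and by DESeq2 it was -0.73 (adjusted p = 0.999). By edgeR it reached an adjusted p of 0.0481 without the upper limits on nuclei, while with classes set per nucleus it was -0.32 (adjusted p = 0.96). In L6 IT-like nuclei, 0.479% of the genes tested had all Het animals below all WT animals. Over all pairs of gene and class this share was 0.181%, and all Het animals lay above all WT animals in 0.339%, where no member was found. In L6 IT-like nuclei the 10 oligodendrocyte markers summed to 40.9, 53.7 and 135 CPM in WT and 0, 20.4 and 41.8 CPM in Het animals, with overlapping ranges. Medians were higher in Het animals for astrocyte markers (205 and 298 CPM) and OPC markers (1984 and 2364 CPM). The part of these markers in the result was not tested. In L6 CT-like nuclei Cdh9 was at 132, 172 and 257 CPM in WT and 101, 137 and 167 CPM in Het animals (-0.50, SE 0.19, adjusted p = 0.386, edgeR). The values in Sncg-like and L2/3 IT-like nuclei were -0.80 and -0.76 with large errors (SE 0.39 and 0.40), and that in striatal projection-like nuclei was -0.09 (SE 0.26).

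The fall in Pvalb-like nuclei was not shown to differ from the values in other classes. The difference between genotypes of Cdh9 in Pvalb-like nuclei was set against that in each of the other 8 tested classes, per animal and on log2(CPM + 1), and the 8 differences, from -0.52 to 0.28, had no adjusted p below 0.727 (exact permutation tests, two-sided, adjusted over the 8). Summed over all inhibitory nuclei, Cdh9 was at 98.2, 149 and 175 CPM in WT and 92.4, 104 and 131 CPM in Het animals (-0.46, SE 0.12, adjusted p = 0.185, edgeR). Over all excitatory nuclei it was at 96.0, 132 and 159 CPM in WT and 90.2, 109 and 112 CPM in Het animals (-0.35, SE 0.13, adjusted p = 0.458, edgeR).

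**Figure D3:**
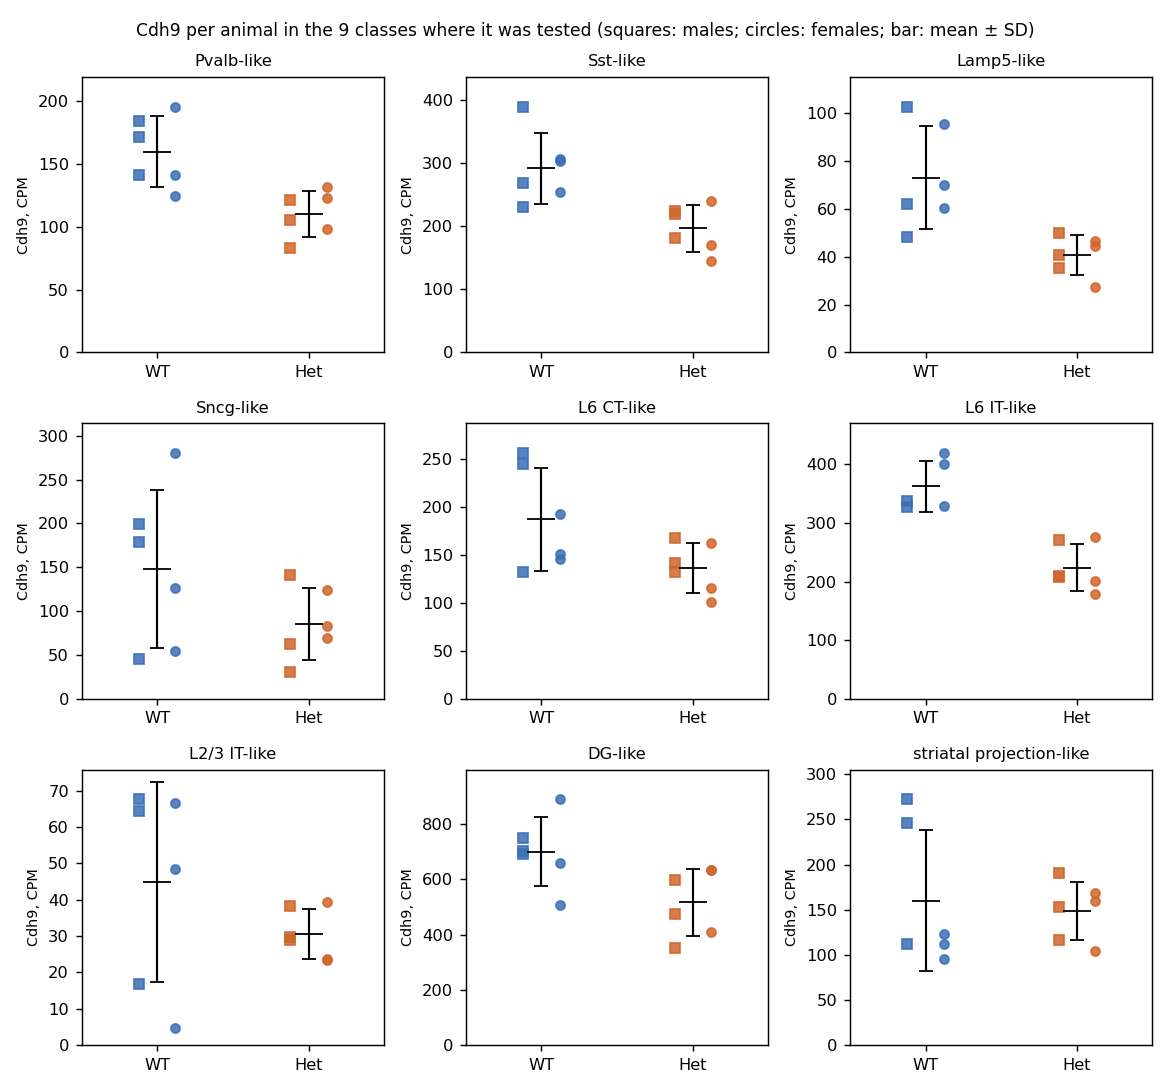
Cdh9 level in CPM for each animal in the 9 classes in which it was tested, WT on the left and Het on the right of each panel. Squares are males, circles are females and bars show the mean and SD over animals, and the Het mean is lower in every panel, without overlap only in L6 IT-like nuclei.

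Cdh6, the partner of Cdh9 in binding, came near the threshold in L6 CT-like nuclei, which project to the thalamus. It was at 36.1, 54.2 and 66.2 CPM in WT and 30.6, 35.7 and 51.1 CPM in Het animals. With 3 of 6 Het animals below the WT range, the log2 fold change was -0.53 (SE 0.14, adjusted p = 0.0551, edgeR). Within the 3 clusters of L6 CT-like nuclei the differences were -0.64 (p = 0.0195), -0.40 (p = 0.197) and -0.67 (p = 0.649, exact permutation tests, two-sided). It was called without WT female 1 (adjusted p = 0.019), WT female 2 (adjusted p = 0.0467) or Het female 3 (adjusted p = 0.0239), and with all animals but no filter on low counts (-0.50, adjusted p = 0.0304, edgeR). It was not called in 9 of 10 alternatives and in 9 of 12 runs without 1 animal. DESeq2, counted among these alternatives, gave no adjusted p for Cdh6 there (-0.53, unadjusted p = 0.00165), so that no call was possible. The smallest fall was -0.32 and the largest adjusted p was 0.285 (edgeR). Cdh6 was negative in 8 of its 9 tested classes by the sign of the edgeR fold change. In its highest neuronal class, L4/5 IT-like nuclei, it was at 192, 225 and 284 CPM in WT and 205, 242 and 253 CPM in Het animals. That class counts as negative although the mean CPM was 230 in WT and 234 in Het animals.

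Cdh10 was negative in 12 of 15 classes, with an unadjusted p under 0.05 in 6 of them, and passed the test in none (smallest adjusted p = 0.412, edgeR). In L6 CT-like nuclei it was at 28.3, 59.7 and 90.9 CPM in WT and 30.4, 41.9 and 49.7 CPM in Het animals, with a log2 fold change of -0.61 (SE 0.25). In L4/5 IT-like nuclei it was at 548, 652 and 769 CPM in WT and 486, 564 and 629 CPM in Het animals (-0.25, SE 0.09), and in Lamp5-like nuclei at 231, 347 and 391 CPM in WT and 218, 263 and 305 CPM in Het animals (-0.38, SE 0.13). The ranges overlapped in each of these classes. In oligodendrocyte-like nuclei, its highest class, Cdh10 had medians of 974 CPM in WT and 911 CPM in Het animals.

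Neither Cdh8 nor Cdh11 passed the test in any class. Cdh8 was lowest in Het relative to WT in Sst-like nuclei, at 272, 313 and 375 CPM in WT and 207, 251 and 294 CPM in Het animals. In 4 of 6 Het animals it lay below the WT range (-0.38, SE 0.11, adjusted p = 0.298, edgeR). In DG-like nuclei, its highest class, Cdh8 was at 982, 1132 and 1189 CPM in WT and 995, 1224 and 1317 CPM in Het animals (0.07, SE 0.09). Cdh11 was at 506, 582 and 672 CPM in WT and 534, 601 and 639 CPM in Het animals in L6 CT-like nuclei, and its largest difference among neurons was in L5 NP-like nuclei (-0.26, SE 0.11, adjusted p = 0.576, edgeR).

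Het animals had lower Cdh20 in L4/5 IT-like nuclei, the neurons of layers that receive thalamic input. The lowest, median and highest levels were 59.9, 77.9 and 99.4 CPM in WT and 41.7, 49.3 and 60.0 CPM in Het animals. In 5 of 6 Het animals Cdh20 lay below the lowest WT animal, WT male 1, and the sixth, Het female 1, lay just above it. The log2 fold change was -0.66 (SE 0.14, adjusted p = 0.0372, edgeR), where 0.129% of all genes in these nuclei were called as lower. Unadjusted p-values were 4.8e-05 by edgeR and 0.000123 by DESeq2. By DESeq2 the adjusted p was 0.0213, over 2767 genes against 6956 in edgeR. These values rest on 344 UMIs of Cdh20 in WT and 242 in Het animals. In the 2 clusters of the class, Cdh20 differed by -0.69 in cluster 9 (means 57.2 and 38.1 CPM, p = 0.0714) and by -0.79 in cluster 13 (means 105 and 61.6 CPM, p = 0.00649, exact permutation tests, two-sided).

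The call of Cdh20 was lost without the upper limits on nuclei (-0.55, adjusted p = 0.114), with classes set per nucleus (-0.56, adjusted p = 0.431) and when any of 9 of the 12 animals was left out (largest adjusted p = 0.176, without WT male 3). It held without WT male 1 (adjusted p = 0.0193), WT male 2 (adjusted p = 0.0366) or WT female 1 (adjusted p = 0.0196). Since Cdh20 was highest in glia, the 9 astrocyte markers were summed in the same L4/5 IT-like nuclei, and none of them was missing. The sum was at 203, 285 and 316 CPM in WT and 195, 213 and 262 CPM in Het animals, with overlapping ranges. The 6 OPC markers summed to medians of 854 CPM in WT and 866 CPM in Het animals, and the 10 oligodendrocyte markers to 29.8 and 28.7 CPM. The part of these markers in the result was not tested.

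The genotype difference of Cdh20 in L4/5 IT-like nuclei was set against that in each of the other 9 tested classes, and lay below it with an adjusted p under 0.05 in 5 of them. L4/5 IT-like nuclei were chosen for this because Cdh20 was called there, a choice that the adjustment over 9 comparisons does not cover, so that these p-values are too small. On the log2 scale and per animal, it lay 0.955 below that in L2/3 IT-like nuclei (adjusted p = 0.039), 0.536 below that in Lamp5-like nuclei (adjusted p = 0.039) and 0.587 below that in OPC-like nuclei (adjusted p = 0.00974), by exact permutation tests, two-sided, adjusted over 9 comparisons. It also lay below that in Vip-like nuclei (by 0.892, adjusted p = 0.00974) and in astrocyte-like nuclei (by 1.18, adjusted p = 0.039, 4 WT and 5 Het animals, exact permutation tests). In L2/3 IT-like nuclei Cdh20 was at 14.7, 29.8 and 56.8 CPM in WT and 28.0, 37.9 and 47.6 CPM in Het animals. Without the upper limits on nuclei, the differences from Lamp5-like (-0.49, adjusted p = 0.0195) and OPC-like nuclei (-0.45, adjusted p = 0.039) kept an adjusted p under 0.05, by exact permutation tests. Those from L2/3 IT-like (-0.37, adjusted p = 0.0507), Vip-like (-0.47, adjusted p = 0.0682) and astrocyte-like nuclei (-0.97, adjusted p = 0.0507) did not, and the genotype difference in L2/3 IT-like nuclei itself went from 0.32 to -0.11. L6 CT-like nuclei, with little Cdh20, showed a difference that could not be told from it (by 0.02, adjusted p = 0.957, exact permutation test). Cdh20 there was at 6.76, 16.8 and 28.1 CPM in WT and 8.54, 9.05 and 11.3 CPM in Het animals (-0.80, SE 0.26, adjusted p = 0.155, edgeR), and it was called without WT male 2 (adjusted p = 0.0409). It was not called in any of 10 alternatives or in 11 of 12 runs without 1 animal. DESeq2, counted among these alternatives, gave no adjusted p for Cdh20 there (-0.84, unadjusted p = 0.00704), so that no call was possible. Within L6 CT-like clusters 15, 16 and 22 the differences of Cdh20 were -0.53 (p = 0.106), -0.46 (p = 0.628) and -1.25 (p = 0.232, exact permutation tests, two-sided). Cluster 15 had the most Cdh20 (means 23.4 and 14.6 CPM), and its median share of the L6 CT-like nuclei was 56.0% in WT and 47.9% in Het animals. The part of this share in the class difference was not tested. In Sncg-like nuclei Cdh20 was at 312, 365 and 786 CPM in WT and 133, 296 and 413 CPM in Het animals (-0.57, SE 0.25, adjusted p = 0.888, edgeR). The differences of L4/5 IT-like from Sncg-like (-0.06, adjusted p = 0.957), Pvalb-like (-0.57, adjusted p = 0.0863) and oligodendrocyte-like nuclei (-0.63, adjusted p = 0.0863) had no adjusted p under 0.05, by exact permutation tests.

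**Figure D4:**
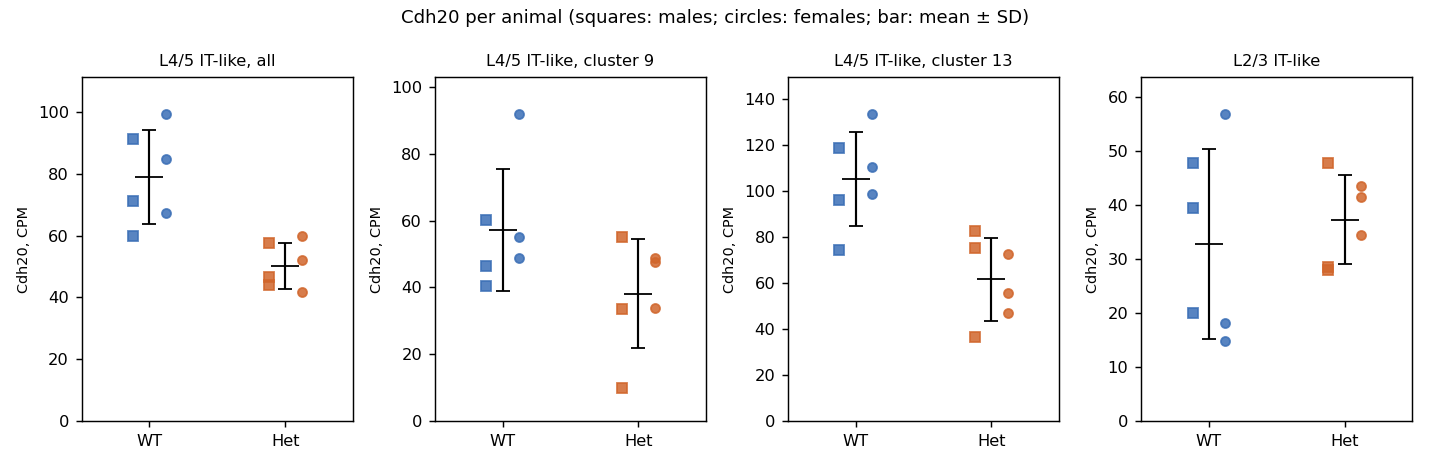
Cdh20 level in CPM for each animal, WT and Het, in L4/5 IT-like nuclei, in each of their 2 clusters and in L2/3 IT-like nuclei. Squares are males, circles are females and bars show the mean and SD over animals, and in L4/5 IT-like nuclei 5 of 6 Het animals lie below the lowest WT animal at 59.9 CPM.

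The other members of this group did not pass the test. Cdh7 was lower in Het in all 6 classes in which it was tested, from -0.13 in Pvalb-like to -0.63 (SE 0.21, adjusted p = 0.462, edgeR) in striatal projection-like nuclei, where it was at 65.4, 88.9 and 140 CPM in WT and 36.7, 64.8 and 75.8 CPM in Het animals. In Sst-like nuclei, its highest class, Cdh7 was at 152, 212 and 273 CPM in WT and 110, 183 and 210 CPM in Het animals. Cdh12 in L4/5 IT-like nuclei was at 5313, 5770 and 6372 CPM in WT and 5418, 6040 and 6514 CPM in Het animals, a difference of 0.03 (SE 0.07), and in Vip-like nuclei it was -0.28 (SE 0.11, adjusted p = 0.558, edgeR). Cdh18 in L6b-like nuclei was at 2931, 4814 and 6465 CPM in WT and 3891, 4578 and 6639 CPM in Het animals. In L6 CT-like nuclei Cdh18 differed by -0.02 (SE 0.06).

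Cdh18 in the sum over all inhibitory nuclei was not called either. It was at 423, 440 and 488 CPM in WT and 448, 566 and 651 CPM in Het animals in that sum, with 5 of 6 Het animals above the WT range (0.31, SE 0.09, adjusted p = 0.191, edgeR). Among the classes of interneurons, the differences of Cdh18 were -0.00 (SE 0.08) in Pvalb-like, -0.07 (SE 0.19) in Sst-like, -0.28 (SE 0.24) in Vip-like and 0.30 (SE 0.35) in Sncg-like nuclei. In striatal projection-like nuclei Cdh18 was at 375, 574 and 1027 CPM in WT and 664, 813 and 882 CPM in Het animals (0.36, SE 0.19, adjusted p = 0.746, edgeR), and it was called there without a filter on low counts (0.48, adjusted p = 0.0337). Striatal projection-like nuclei were 395 of the 3639 inhibitory nuclei in WT and 853 of 4981 in Het animals. The part of these shares in the pooled value was not tested.

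Cdh13 had higher values in Het in 9 of 15 classes, none of which passed the test. In L6 CT-like nuclei Cdh13 was at 181, 232 and 255 CPM in WT and 213, 297 and 334 CPM in Het animals. In 5 of 6 Het animals it lay above all WT animals, with Het male 3 as the exception, and the log2 fold change was 0.36 (SE 0.09, adjusted p = 0.0569, edgeR). It was called by DESeq2 (adjusted p = 0.024), with sex as a covariate (adjusted p = 0.0443), without a filter on low counts (adjusted p = 0.0015), and without Het male 3 (adjusted p = 0.0128) or WT male 2 (adjusted p = 0.0409).

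The L6 CT-like clusters differed in Cdh13 and in their shares of nuclei. Within clusters 15, 16 and 22 the differences of Cdh13 were 0.03 (means 127 and 130 CPM, p = 0.909), 0.26 (means 500 and 600 CPM, p = 0.0952) and 0.30 (means 65.8 and 81.6 CPM, p = 0.526, exact permutation tests, two-sided). The share of cluster 16, which had the most Cdh13, among L6 CT-like nuclei was 21.3%, 29.9% and 33.7% (lowest, median and highest) in WT and 29.1%, 36.7% and 42.3% in Het animals. The share of cluster 15 was 53.3%, 56.0% and 63.6% in WT and 43.6%, 47.9% and 55.4% in Het animals. The shares overlapped between genotypes, and their part in the class difference was not tested.

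**Figure D5:**
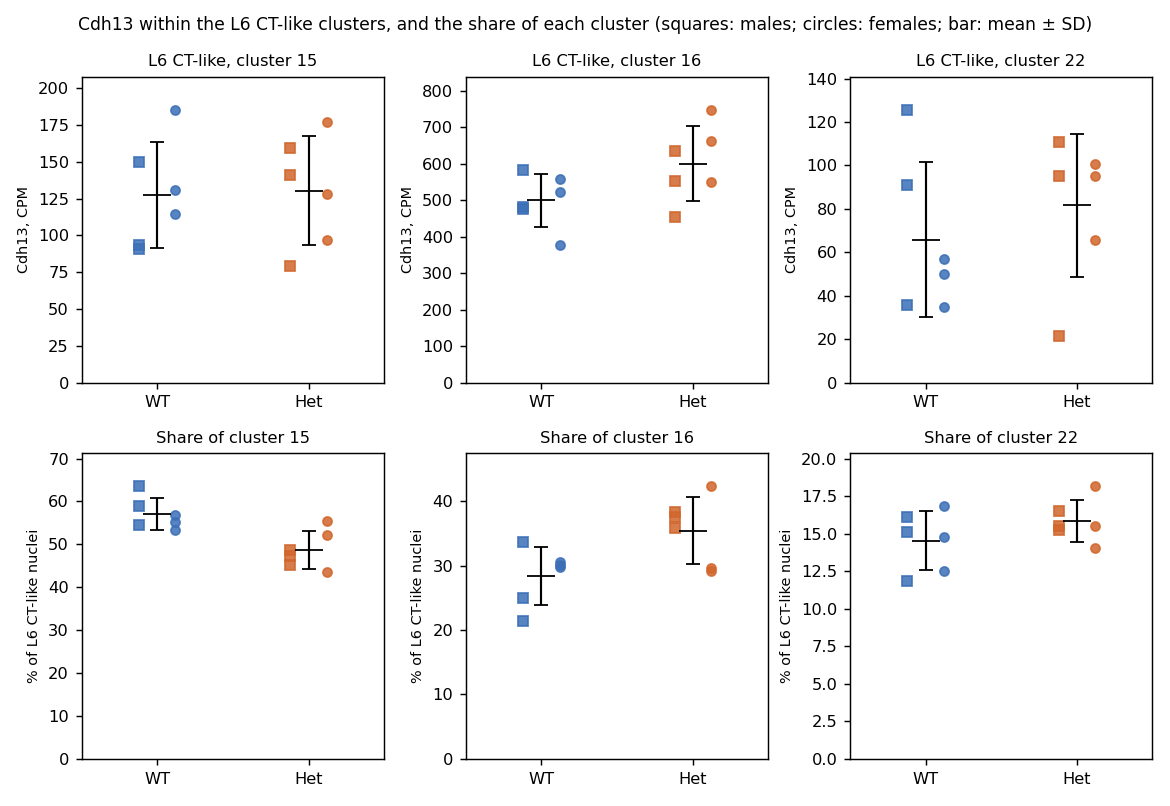
Cdh13 level in CPM for each animal within the 3 clusters of L6 CT-like nuclei, and the share of each cluster among the L6 CT-like nuclei of the animal in percent. Squares are males, circles are females and bars show the mean and SD over animals, and cluster 16 has the highest Cdh13 level, with a median share of 29.9% in WT and 36.7% in Het animals.

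In most classes of interneurons the mean of Cdh13 was also higher in Het animals, and it did not pass the test. In Sst-like nuclei it was at 811, 1017 and 1151 CPM in WT and 1115, 1249 and 1502 CPM in Het animals (0.35, SE 0.09, adjusted p = 0.237, edgeR). Within cluster 5, which held most Sst-like nuclei, the difference was 0.41 with p = 0.00217, the smallest that an exact permutation test of 6 against 6 animals can give. Cdh13 was called in Sst-like nuclei without a filter on low counts (0.36, adjusted p = 0.0351) and in Pvalb-like nuclei without the upper limits on nuclei (0.33, adjusted p = 0.0444). In both classes it was not called in 9 of 10 alternatives (adjusted p = 0.987 in Sst-like and 0.986 in Pvalb-like nuclei by DESeq2). Nor was it called in any of 12 runs without 1 animal. In Pvalb-like nuclei Cdh13 was at 517, 643 and 721 CPM in WT and 657, 827 and 857 CPM in Het animals (0.29, SE 0.08, adjusted p = 0.309, edgeR), and 4 of 6 Het animals lay above the WT range. The differences within its 2 clusters were 0.32 (p = 0.0455) and 0.35 (p = 0.0152, exact permutation tests, two-sided). Vip-like and Lamp5-like nuclei both gave 0.48 (SE 0.17 and 0.19, adjusted p = 0.509 and 0.611, edgeR), while Sncg-like nuclei had means of 174 CPM in WT and 177 CPM in Het animals. In L6 IT-like nuclei, the highest class of Cdh13, the medians were 1273 and 1244 CPM.

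No member was called for a genotype difference that differed between males and females (sex by genotype term of edgeR), where 0.0145% of all pairs of gene and class were called. Of 116 pairs of a member and a class, 14 had an unadjusted p under 0.05, against 5.33% of the pairs of all genes, and the smallest adjusted p was 0.457. For Cdh20 in L4/5 IT-like nuclei the difference was -0.57 in males and -0.70 in females, and for Cdh9 in Pvalb-like nuclei -0.69 in males and -0.37 in females. In L6 CT-like nuclei it was -0.23 in males and -1.07 in females for Cdh20 (adjusted p of the term = 1, edgeR), and -0.73 in males and -0.20 in females for Cdh6 (adjusted p of the term = 1, edgeR), all as differences of means on log2(CPM + 1).

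Of the 21 other genes of cadherin adhesion that were examined, none was called in any class by edgeR. They gave 11 pairs with an unadjusted p under 0.05 among 146 tested, 8 higher and 3 lower in Het. By DESeq2 1 gene was called. That was Ctnna3, an alpha-catenin, in L6 CT-like nuclei (-0.29, adjusted p = 0.0204 by DESeq2 and 0.0691 by edgeR). Cdh2, the type I N-cadherin of synapses, was tested in 17 classes, with 8 positive and 9 negative differences and a smallest adjusted p of 0.812. Cdh19, Cdh22 and Cdh24 are also type II cadherins but were not among the members. Cdh22 was positive in 4 of 5 classes, from -0.29 in striatal projection-like to 0.54 in L6 CT-like nuclei (smallest adjusted p = 0.36, edgeR). Cdh19 was positive in 1 of 2 classes, and Cdh24 was negative in the 1 class tested. Of the catenins that link cadherins to the cytoskeleton, Ctnnb1 was positive in 6 of 8 classes (smallest adjusted p = 0.166) and Ctnna2 in 7 of 17 (smallest adjusted p = 0.864). Ctnnd2, the delta-catenin of neurons, was negative in 16 of 17 classes with a median of -0.08 and a smallest adjusted p of 0.756 (edgeR). In L4/5 IT-like nuclei the median over the 9 members tested was -0.19, with 8 negative, against -0.07 over the 13 other adhesion genes and -0.00 over all 6956 genes that passed the filter. For L6 CT-like nuclei the median was -0.19 over 9 members, 8 of them negative, and -0.03 over 14 other adhesion genes. The median of the members tested was positive in Sncg-like (0.16, 5 of 8 positive), striatal projection-like (0.11, 6 of 9 positive) and astrocyte-like nuclei (0.34, 2 of 3 positive) and negative in the other classes. The median over all genes tested lay from -0.02 to 0.00 over the classes.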

How the data were processed

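The deposited values are expected counts of UMIs per gene and nucleus in 12 animals, which the authors made with ScaleRna on mm10 where a UMI matching more than 1 gene is split between those genes and nothing is normalized. The share of whole entries was near 92.3% in WT male 1, and from 0.37% to 2.01% of a member's UMIs came from divided entries. No other column of per-sample values was present (0 columns). Per the labels, the authors also used Seurat 4.3.0 and DESeq2 1.38.3. Following the study's limits, nuclei with 300 to 3000 genes and 800 to 6000 UMIs were kept if no more than 1% of UMIs were mitochondrial and log genes over log UMIs reached 0.9, and the 5% with the highest Scrublet scores per animal were removed (scanpy 1.11.5). Nuclei were clustered without cadherin genes on 50 principal components of 3000 variable genes, at 20 neighbours and a resolution of 2.5. Clusters were named from marker lists, with the naming criteria set after the clusters were seen and before genotypes were compared. Classes set for each nucleus were the first choice, but they left most nuclei unnamed. Classes from clusters were adopted in their place after seeing the data, and those per nucleus became an alternative. The values within clusters were also added after seeing the data. Nuclei named by both ways had the same class in 89.3% of 8069 cases. Sums per animal with at least 10 nuclei of the class were rounded and tested with edgeR 4.0.16 (TMM, filterByExpr, robust quasi-likelihood, genotype only, at least 3 animals per genotype), with DESeq2 1.42.0 as an alternative. The SE printed with an edgeR fold change was worked back from the test, as the absolute log2 fold change divided by the square root of F. DESeq2 was run without filterByExpr. Its adjustment covered 26571 genes in Pvalb-like but 2767 in L4/5 IT-like and in L6 CT-like nuclei, so that its adjusted p-values and those of edgeR are over unlike sets of genes. edgeR and the permutation tests were tested on simulated data. The 10 members, the list of other adhesion genes and the tests were chosen with earlier results of these data known. The genes named were all members, other adhesion genes called in any class or set beforehand as the N-cadherin and catenins of neurons, Myt1l, and for each member the 3 genes closest in pattern. Ctnna3 was named after its DESeq2 result was seen, and Cdh19, Cdh22 and Cdh24 after their values were seen. Alternatives were the normalization, the filter on low counts, the limits on nuclei, doublets, class names, sex, the replicate block, whole UMIs only and leaving out each animal.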

Additional observations from a re-analysis of the deposited data

Results flagged for a closer look

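Of 32 groups of 5 or 6 animals examined for a value far from the others, 1 had such a value, and chance alone gives about 1 in 20. Cdh20 in L6 CT-like nuclei of Het male 3 was at 11.3 CPM, with the next Het animal at 9.54 CPM, a gap of 0.633 of the group's range against a critical value of 0.625. The difference between genotypes of Cdh20 in L4/5 IT-like nuclei differed from that in other classes, by -0.955 on the log2 scale against L2/3 IT-like, -0.536 against Lamp5-like, -0.587 against OPC-like, -0.892 against Vip-like and -1.18 against astrocyte-like nuclei (exact permutation tests). L4/5 IT-like nuclei were chosen because Cdh20 was called there. Without the upper limits on nuclei the values were -0.37, -0.49, -0.45, -0.47 and -0.97 in the same order, and those against L2/3 IT-like, Vip-like and astrocyte-like nuclei no longer had an adjusted p under 0.05. The first of these rests on 190 Cdh20 UMIs in the L2/3 IT-like nuclei of WT animals. Against L6 CT-like, Sncg-like, Pvalb-like and oligodendrocyte-like nuclei the difference had no adjusted p under 0.05 (exact permutation tests).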

How the results depend on the processing

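The values rest on 3 to 6 animals per genotype and on few UMIs for low genes, such as 96 in WT and 82 in Het animals for Cdh20 in L6 CT-like nuclei, and no limit of detection was computed. The 2 calls among members became 7 without a filter on low counts and 0 with classes per nucleus. They were 1 with a stricter margin for class names, under which no L4/5 IT-like cluster was named. When 1 animal was left out they were 0 to 4. Without the filter, calls over all genes rose too, in L6 CT-like (59 to 116), L4/5 IT-like (15 to 38) and Pvalb-like nuclei (4 to 7). They also rose in Sst-like (3 to 10) and striatal projection-like nuclei (2 to 13). With classes per nucleus, 2 genes were called in L4/5 IT-like and 0 in Pvalb-like nuclei. Where the count of member calls stayed at 2, the pairs called could change. Without upper limits on nuclei they were Cdh13 in Pvalb-like (0.33) and Cdh9 in L6 IT-like nuclei (-0.70). By DESeq2 and with sex as a covariate they were Cdh20 in L4/5 IT-like and Cdh13 in L6 CT-like nuclei (0.36 for Cdh13 in both). Cdh9 in Pvalb-like nuclei was not called by DESeq2 (-0.56), without upper limits on nuclei (-0.32), with classes per nucleus (-0.45) and with sex as a covariate (-0.56, adjusted p = 0.0609), and ranged from -0.62 to -0.50 when 1 animal was left out. Cdh20 in L4/5 IT-like nuclei was not called without upper limits (-0.55) and with classes per nucleus (-0.56), and ranged from -0.73 to -0.59 when 1 animal was left out. Without upper limits more genes passed the filter, 12996 against 6956 in L4/5 IT-like and 8871 against 5529 in Pvalb-like nuclei. The cause of these lost calls was not tested. Within single clusters only unadjusted exact permutation tests were run, so that no call was possible there, and p was above 0.05 for Cdh9 in cluster 4 (-0.37, p = 0.197) and for Cdh20 in cluster 9 (-0.69, p = 0.0714). No direction of the 16 pairs with an unadjusted p under 0.01 was reversed under any alternative. The other adhesion genes gave 1 call by DESeq2 and 0 to 1 when 1 animal was left out. The same class was highest for 8 of 10 members without upper limits, and for 4 of 10 with classes per nucleus when both orders were limited to the 10 classes with values there. The classes from which Cdh20 in L4/5 IT-like nuclei differed fell from 5 to 2 without upper limits.

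The replicate numbers of the labels did not pair the animals: WT and Het animals of 1 sex and number had correlations from -0.264 to 0.191 in their deviations from the group means, and 2 of 6 correlated best with their own number. With sex and number as a replicate block, 1 member was called, Cdh13 in L6 CT-like nuclei (0.34, adjusted p = 0.0274), while Cdh9 in Pvalb-like nuclei was at -0.56 (adjusted p = 0.0555) and Cdh20 in L4/5 IT-like nuclei at -0.67 (adjusted p = 0.0585).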
